A study of Mus musculus with 17 samples.

Results

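Gata1, Tal1, Klf1, Gfi1b, Nfe2, Hemgn, Epor, Alas2 and Slc4a1 are the 9 non-globin genes of the red cell lineage described here, chosen by name from the 41709 gene symbols of the deposited table, in which all 9 were found. Their transcript levels were read in 17 mouse embryos of the strain C57BL/6J, each library holding the RNA of a whole embryo. The Disp1_CS_INDEL embryos (n = 4, E9.5) carried a CS allele from the mother and an INDEL allele from the father at Disp1, the gene of the Hedgehog-releasing membrane protein Dispatched, and were set against wild-type Disp1_WT embryos (n = 4, E9.5) of such crosses. The Myo10_m1J embryos (n = 5, E8.5) were homozygous for the m1J allele of Myo10, the gene of the filopodial motor myosin X, and were set against wild-type Myo10_WT embryos (n = 4, E8.5) from heterozygous parents. The labels do not say which embryos were littermates, whether the yolk sac was taken along or how far each embryo had developed within its day, and the alleles acted in the whole animal rather than in blood cells alone.

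Levels are TPM, a unit adjusted for transcript length and scaled to the same total of 1000000 in every library, so the read depth behind each value is unknown. The mutated transcripts were checked first. Myo10 was 3.61 ± 0.885 TPM in Myo10_m1J embryos (SD, n = 5), against 25.8 ± 6.02 TPM in Myo10_WT embryos (n = 4; exact two-sided permutation p = 0.0159, the smallest this design allows). Disp1 was 14.3 ± 1.98 TPM in Disp1_CS_INDEL embryos and 17.5 ± 1.74 TPM in Disp1_WT embryos (SD, n = 4 each; exact two-sided permutation p = 0.0571), so this transcript checks the labels only weakly. A class of transcripts separates the experiments: 5 small structural RNA genes (Rn7s1, Rn7s2, 7SK_159, Rmrp_1 and Rpph1) took 38.1% ± 4.47 of all TPM in Myo10_m1J embryos and 33.7% ± 3.49 in Myo10_WT embryos, but 0.00951% ± 0.00322 in Disp1_CS_INDEL embryos and 0.00671% ± 0.00299 in Disp1_WT embryos. Since TPM adds up to a fixed total, all other genes share what remains of it, and each comparison between ages is given below also after median-of-ratios scaling, which sets the typical gene to the same level in all libraries.

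Mouse embryos make their first red cells in the blood islands of the yolk sac. These primitive erythroid cells enter the circulation once the heart beats and go on maturing there as nucleated cells filled with embryonic globin. Tal1 (also called Scl) is a helix-loop-helix factor needed to form blood from mesoderm, and it is also made in endothelium. Gata1, an X-linked zinc finger factor, is needed for red cell precursors to survive and mature, and it works with Tal1 in complexes on DNA. Klf1 switches on globin, haem and membrane genes. Gfi1b is a repressor of the lineage, Nfe2 is the larger subunit of a dimer that binds globin control regions, and Hemgn (haemogen) is a nuclear protein of blood precursors. Epor is the receptor for erythropoietin. Alas2, also X-linked, is the erythroid form of the enzyme that starts haem synthesis, while its housekeeping relative is Alas1. Slc4a1 encodes band 3, the anion exchanger that anchors the red cell membrane skeleton. Gata1, Gfi1b, Nfe2 and Tal1 are used by megakaryocytes as well.

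The promoters show what several members share in sequence. RefSeq promoter windows of build GRCm38.p6, running from 250 bases before to 50 after an annotated start, were matched for 7 of the 9 genes, and Slc4a1 and Nfe2 are named only. A GATA word (AGATAA or TGATAA, and the same words ending in G, on either strand) lay in a window of 6 of these 7 genes, whereas 29.6% of the 32544 windows of all genes held such a word. Windows of Gfi1b, Hemgn and Klf1, 3 of the 7, also held the word CTG followed after 7 or 8 bases by AGATAA or TGATAA on the same strand, an arrangement known from sites where Tal1 and Gata1 sit together, against 0.98% of all windows; this arrangement overlaps the GATA word itself. The window of Gata1 and 1 of the pair listed for Tal1 held no GATA word. The counts of 6 and 3 are of genes, which had 8 windows in all, while the shares set beside them are of windows. A match describes letters in a window, not binding. The 4 stretches printed here, each the 250 bases before the start, show the transcription factors Klf1 and Gfi1b, where the GATA word belongs to the CTG arrangement, and the receptor Epor and the haem enzyme Alas2, where it stands without it. Capitals mark the GATA words, which read TTATCT or TTATCA where they lie on the opposite strand.
Klf1, chr8:84901732-84901981, plus strand: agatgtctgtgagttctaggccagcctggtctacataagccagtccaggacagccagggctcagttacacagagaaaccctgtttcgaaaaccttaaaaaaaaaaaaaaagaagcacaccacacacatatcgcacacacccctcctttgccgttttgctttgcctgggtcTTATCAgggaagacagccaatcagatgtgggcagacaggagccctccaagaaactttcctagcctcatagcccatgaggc
Gfi1b, chr2:28621983-28622232, minus strand: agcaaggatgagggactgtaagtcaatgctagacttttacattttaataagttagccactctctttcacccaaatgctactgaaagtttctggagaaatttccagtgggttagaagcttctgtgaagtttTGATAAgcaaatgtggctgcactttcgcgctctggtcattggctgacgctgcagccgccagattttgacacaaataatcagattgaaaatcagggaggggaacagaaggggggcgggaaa
Epor, chr9:21963577-21963826, minus strand: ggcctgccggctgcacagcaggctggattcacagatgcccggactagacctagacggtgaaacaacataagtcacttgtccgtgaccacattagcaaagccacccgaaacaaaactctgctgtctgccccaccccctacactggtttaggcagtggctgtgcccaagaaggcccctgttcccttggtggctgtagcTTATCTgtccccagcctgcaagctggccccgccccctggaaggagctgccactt
Alas2, chrX:150547167-150547416, plus strand: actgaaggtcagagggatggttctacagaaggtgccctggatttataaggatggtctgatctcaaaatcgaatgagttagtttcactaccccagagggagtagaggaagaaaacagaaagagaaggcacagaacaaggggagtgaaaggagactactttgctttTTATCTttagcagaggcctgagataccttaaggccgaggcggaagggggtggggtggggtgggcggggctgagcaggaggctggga

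At E9.5 all 9 genes were well expressed and lay close together in mutant and wild-type embryos. Gata1 was 11.0, 9.39, 11.6 and 14.4 TPM in the Disp1_CS_INDEL embryos, against 9.95, 11.9, 11.5 and 13.2 TPM in the Disp1_WT embryos. Tal1 was 14.7, 10.9, 17.7 and 16.5 TPM in Disp1_CS_INDEL, against 13.4, 16.7, 14.4 and 15.0 TPM in Disp1_WT. For both factors the mutant group held the lowest and the highest embryo of this age, and the wild types lay between them. Klf1 was 27.2, 14.2, 34.6 and 31.0 TPM in Disp1_CS_INDEL, against 20.3, 22.9, 22.8 and 27.8 TPM in Disp1_WT. The erythroid enzyme and membrane genes stood highest of the 9. Alas2 was 86.7, 66.9, 101.5 and 115.0 TPM in Disp1_CS_INDEL, against 79.1, 110.6, 106.8 and 100.3 TPM in Disp1_WT. Slc4a1 was 104.2, 55.3, 128.6 and 130.4 TPM in Disp1_CS_INDEL, against 89.8, 105.2, 95.1 and 117.3 TPM in Disp1_WT. Both genes again showed 1 low mutant embryo, replicate 2, beside 3 that lay at or near the wild-type values. Epor averaged 12.4 ± 2.02 TPM in Disp1_CS_INDEL and 13.0 ± 2.59 TPM in Disp1_WT (SD, n = 4 each), Hemgn 16.7 ± 5.77 TPM in Disp1_CS_INDEL and 16.3 ± 2.99 TPM in Disp1_WT, Gfi1b 8.06 ± 1.29 in Disp1_CS_INDEL and 7.81 ± 0.745 in Disp1_WT, and Nfe2 7.14 ± 0.935 in Disp1_CS_INDEL and 7.16 ± 1.41 in Disp1_WT.

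**Figure D1:**
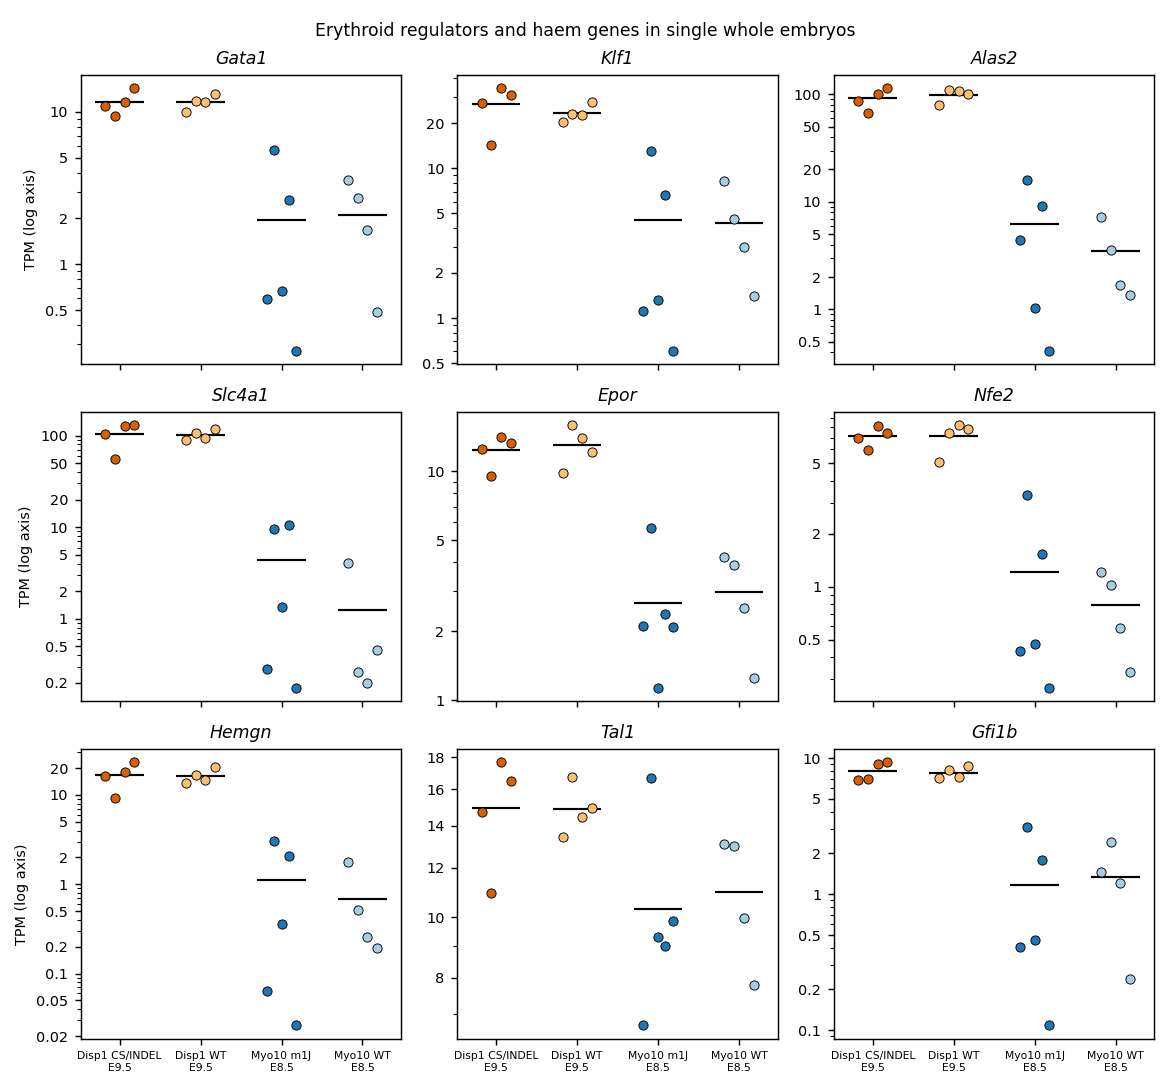
TPM of the 9 genes (log axis, 1 panel per gene) in each of the 17 embryos, grouped as Disp1_CS_INDEL and Disp1_WT at E9.5 and Myo10_m1J and Myo10_WT at E8.5; points are single embryos in replicate order and bars are group means. Mutant and wild-type points overlap in every panel at both ages. The E8.5 points spread far more widely than the E9.5 points except for Tal1, where highest over lowest was 2.48 at E8.5 and 1.62 at E9.5.

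No difference between Disp1_CS_INDEL and Disp1_WT embryos was larger than the spread between embryos for any of the 9 genes. Limma on log2(TPM + 1) with Benjamini-Hochberg adjustment over 13294 genes called 0 of 9 at an adjusted p under 0.05, where 0.0301% of all genes tested were called, and 0 of 9 had an unadjusted p under 0.05, where 2.26% of all genes did. The differences in mean log2(TPM + 1), mutant minus wild type, ran from -0.12 for Alas2 (SE 0.157, 95% interval -0.46 to 0.23) to 0.12 for Klf1 (SE 0.227, interval -0.38 to 0.62). Their median was -0.01, against 0.01 over all genes tested, and 3 of the 9 were positive, against 56.3% of all genes. The intervals were widest for Slc4a1 (-0.55 to 0.49), Hemgn (-0.52 to 0.49) and Klf1, so moderate differences of either sign lay within the error of these 3 genes. The narrowest interval was that of Gfi1b, -0.22 to 0.28. Mutant and wild-type values overlapped for every one of the 9, that is 0 of 9 were separate, where 0.895% of all genes were non-overlapping and higher and 0.654% non-overlapping and lower in the mutants.

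**Figure D2:**
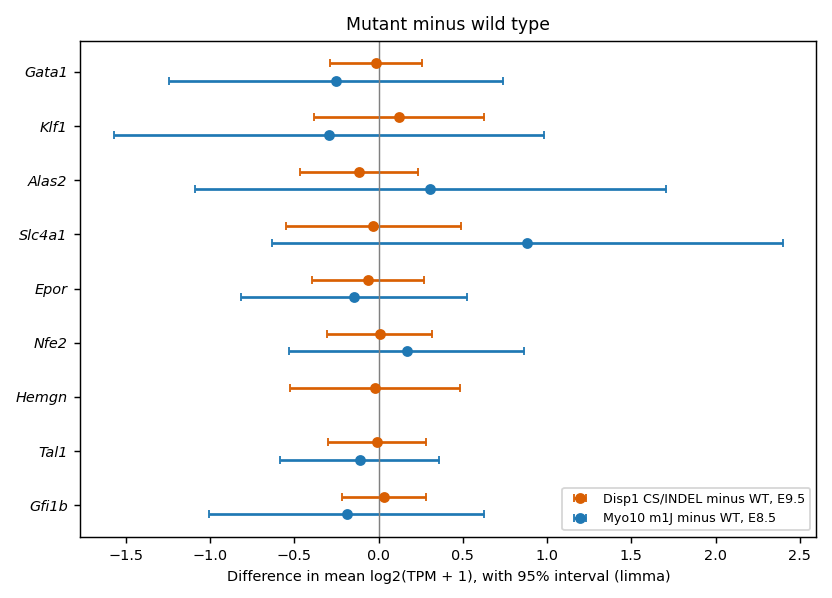
Difference in mean log2(TPM + 1) between mutant and wild-type embryos for each gene, with the 95% interval from limma; orange is Disp1_CS_INDEL minus Disp1_WT at E9.5 and blue is Myo10_m1J minus Myo10_WT at E8.5, where Hemgn was not tested. Every interval crosses 0, and the E8.5 intervals are the wider ones for each gene drawn in both colours.

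A single library set much of the spread among the mutants at E9.5. Disp1_CS_INDEL replicate 2 was the lowest of the 8 embryos for 7 of the 9 genes, the exceptions being Nfe2 (lowest in Disp1_WT replicate 1) and Gfi1b (lowest in Disp1_CS_INDEL replicate 1). The same library held 147.0 TPM summed over 11 megakaryocyte genes, against 22.8 to 29.2 TPM in the other 3 mutants and 34.1 to 37.9 TPM in the wild types. Pf4, the platelet chemokine, was 75.0 TPM in it, and the other mutants lay between 7.75 and 13.1 TPM. The part of these transcripts in the low values of the erythroid genes was not tested. Without this library all 9 differences were positive, where 53.9% of all genes were, and their median was 0.09, against 0.006 over all genes. Klf1 (0.39, SE 0.113) and Slc4a1 (0.25, SE 0.105) then had an unadjusted p under 0.05, as 2.45% of all genes did, while 0 of 9 passed the adjusted threshold in limma. The library was singled out by its low values in these same genes, so leaving it out raises their mutant means. It was not singled out for all genes, so their shares are no fair measure here, and no difference is read from these counts. Without Disp1_CS_INDEL replicate 3, 0 of 9 were positive, where 60% of all genes were. The sign of these small differences thus followed which mutant embryo was counted.

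The other genes of the red cell program were read in the same way at E9.5. Between Disp1_CS_INDEL and Disp1_WT, limma called 0 of 7 enzymes of haem synthesis beyond Alas2 and 0 of 13 iron and haem handling genes. It also called 0 of 17 red cell membrane genes and 0 of 17 other blood factors. Of the erythropoietin pathway genes it called 0 of 13, and of the other red cell genes 0 of 12. The blood factors include the receptor Kit besides transcription factors. The median differences of the first 5 lists ran from -0.07 (membrane) to -0.01 (factors), while that of the other red cell genes was 0.08. Of these other red cell genes 10 of 12 were positive, where 56.3% of all genes were. The remaining lists had 3 of 7 (haem synthesis), 4 of 13 (iron), 5 of 17 (membrane), 8 of 17 (factors) and 5 of 13 (erythropoietin pathway) positive. The ligand Epo averaged 5.51 ± 1.03 TPM in Disp1_CS_INDEL and 5.74 ± 0.405 TPM in Disp1_WT. The groups overlapped.

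At E8.5 the same genes were low on average and varied greatly from embryo to embryo. Gata1 was 0.595, 5.66, 0.669, 2.63 and 0.271 TPM in the Myo10_m1J embryos, against 3.57, 2.74, 1.69 and 0.489 TPM in the Myo10_WT embryos. Klf1 was 1.12, 13.1, 1.32, 6.63 and 0.603 TPM in Myo10_m1J, against 8.21, 4.61, 3.00 and 1.41 TPM in Myo10_WT. For both factors, mutant replicates 2 and 4 and wild-type replicates 1 and 2 stood above the other embryos, and the groups overlapped throughout. Alas2 was 4.45, 16.1, 1.03, 9.17 and 0.412 TPM in Myo10_m1J, against 7.25, 3.56, 1.69 and 1.35 TPM in Myo10_WT. Slc4a1 was 0.286, 9.66, 1.36, 10.5 and 0.176 TPM in Myo10_m1J, against 4.07, 0.265, 0.200 and 0.454 TPM in Myo10_WT. Band 3 transcript was thus between 4.07 and 10.5 TPM in 3 embryos, 2 mutants and 1 wild type, and at most 1.36 TPM in the other 6. Hemgn, the gene with the widest spread, was 0.0642, 3.07, 0.358, 2.05 and 0.0263 TPM in Myo10_m1J, against 1.79, 0.517, 0.259 and 0.194 TPM in Myo10_WT. Tal1 was the one member with several TPM in every E8.5 embryo. It was 6.71, 16.7, 9.28, 8.98 and 9.85 TPM in Myo10_m1J, against 13.1, 13.0, 9.97 and 7.80 TPM in Myo10_WT. The remaining members were low in both groups: Epor averaged 2.67 ± 1.73 TPM in Myo10_m1J and 2.97 ± 1.35 TPM in Myo10_WT, Gfi1b 1.17 ± 1.25 TPM in Myo10_m1J and 1.33 ± 0.893 TPM in Myo10_WT, and Nfe2 1.205 ± 1.285 TPM in Myo10_m1J and 0.784 ± 0.404 TPM in Myo10_WT (SD, n = 5 and n = 4).

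No difference between Myo10_m1J and Myo10_WT was detectable against this spread. Of the 9 genes, 8 passed the filter of at least 1 TPM in at least 4 libraries, Hemgn being the gene left out. Limma called 0 of these 8, where 0.00796% of 12560 genes were called (1 gene, Myo10 itself), and 0 of 8 had an unadjusted p under 0.05, where 6.8% of all genes did. The largest difference was that of Slc4a1, 0.88 on the log2(TPM + 1) scale (SE 0.70, 95% interval -0.63 to 2.40, limma adjusted p = 0.485). Its mean was 4.39 ± 5.21 TPM in Myo10_m1J and 1.25 ± 1.88 TPM in Myo10_WT, and the values of single embryos crossed. Alas2 followed at 0.31 (interval -1.09 to 1.70), whereas Klf1 (-0.30, interval -1.57 to 0.98) and Gata1 (-0.25, interval -1.24 to 0.74) pointed the other way without passing. The groups overlapped for all 9 genes, where 0.0318% of all genes were separate and higher and 0.963% separate and lower in the mutants. The median of the 8 was -0.13, against -0.16 over all genes tested, and 3 were positive, against 6% of all genes. After median-of-ratios scaling 4 of 8 were positive, with a median of 0.03 against 0.01 over all genes, and 0 of 8 were called, where 0% of all genes were called higher and 0.00768% lower. The difference between the mutant effects of the experiments was tested too: limma called 0 of 9 genes for the difference of the effects, where 0.0216% of 13910 genes were called, and the smallest adjusted p was 0.616, for Slc4a1.

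**Figure D3:**
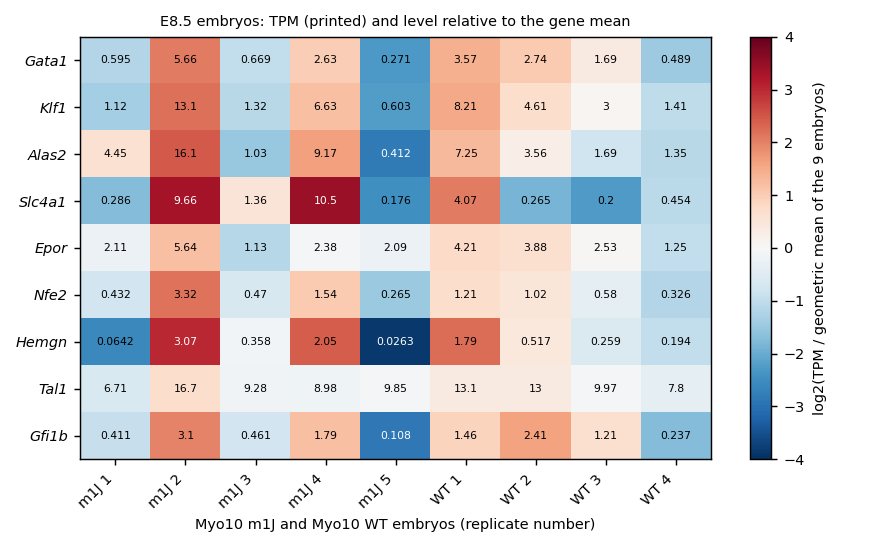
The 9 genes (rows) in the 9 embryos of E8.5 (columns, Myo10_m1J left and Myo10_WT right); printed numbers are TPM, and colour is log2 of TPM over the geometric mean of that gene in the 9 embryos. Whole columns are red or blue together: m1J 2, m1J 4 and WT 1 are high and m1J 5 is low for nearly every gene, and the Tal1 row is the palest.

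Much the same embryos were high or low whichever gene was read. Myo10_m1J replicate 2 was the highest of the 9 embryos for 8 of the 9 genes (Slc4a1 was highest in Myo10_m1J replicate 4) and was among the top 3 for all 9. Myo10_WT replicate 1 was among the top 3 for 8 genes and Myo10_m1J replicate 4 for 6. Myo10_m1J replicate 5 was lowest for 7 genes, with Epor lowest in Myo10_m1J replicate 3 and Tal1 lowest in Myo10_m1J replicate 1. The highest embryo exceeded the lowest 117-fold for Hemgn, 59.6-fold for Slc4a1, 39.0-fold for Alas2, 28.6-fold for Gfi1b, 21.7-fold for Klf1, 20.9-fold for Gata1, 12.5-fold for Nfe2, 4.99-fold for Epor and 2.48-fold for Tal1. These ratios rest on TPM values far below 1 for several genes, whose depth is unknown. At E9.5 the corresponding ratios over 8 embryos lay between 1.36 for Gfi1b and 2.51 for Hemgn.

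This variation stood high among all genes. The SD within groups at E8.5 was 1.38 on the log2(TPM + 1) scale for Slc4a1, rank 34 of 12560 genes, 1.27 for Alas2 (rank 37), 1.15 for Klf1 (rank 47) and 0.886 for Gata1 (rank 100), whereas the median gene had 0.193. Tal1 was the least variable member, at 0.392 (rank 1028). At E9.5 the SD ran from 0.170 for Gfi1b to 0.423 for Slc4a1, against a median of 0.120 over 13294 genes. The summed level of 8 globin genes moved with these values: it was 861, 5392, 497, 3511 and 95.6 TPM in Myo10_m1J replicates 1 to 5 and 2043, 579, 374 and 320 TPM in Myo10_WT replicates 1 to 4. The sum of 9 heart genes was 692, 1113, 972, 1138 and 497 TPM in Myo10_m1J and 1545, 673, 318 and 1005 TPM in Myo10_WT. It was highest in Myo10_WT replicate 1, Myo10_m1J replicate 4 and Myo10_m1J replicate 2, the embryos that also held the highest globin sums. The other embryos stood in a different order: Myo10_WT replicate 4, the lowest wild type for globins (320 TPM), held 1005 TPM of heart genes. In a whole embryo, fewer red cells and less RNA of a gene per red cell cannot be told apart.

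Other cell types and the Y chromosome were read beside the same embryos. Myo10_m1J replicate 2, the highest embryo, also held the highest sums of 13 endothelial genes (226.5 TPM, against 123.9 to 137.1 TPM in the other mutants and 126.8 to 197.1 TPM in the wild types), of the megakaryocyte genes (11.7 TPM, against 2.31 to 4.40 in the other mutants and 2.93 to 7.81 in the wild types) and of 8 decidual genes (176 TPM, against 14.3 to 31.4 in the other mutants and 12.3 to 31.3 in the wild types). Macrophage genes were low in all E8.5 embryos, with sums from 1.91 to 6.51 TPM in Myo10_m1J and from 2.599 to 5.40 TPM in Myo10_WT. The sum of 11 yolk sac endoderm genes ran from 871 to 2603 TPM in Myo10_m1J and from 968 to 3035 TPM in Myo10_WT, so transcripts typical of yolk sac endoderm were present in every E8.5 library. Their part in the levels of the erythroid genes was not tested. Y-linked transcripts were found in 3 of 5 Myo10_m1J and 1 of 4 Myo10_WT embryos, and in 3 of 4 embryos of both E9.5 groups. The 3 embryos that were high for nearly every gene carried them, but so did Myo10_m1J replicate 3, which was low. Among embryos with Y-linked transcripts (3 mutants, 1 wild type) the member differences ran from -0.55 to 0.38 with 3 of 9 positive. Among those without (2 mutants, 3 wild types) they ran from -1.04 to -0.08 with 0 of 9 positive. No test was made on this split, and the share of all genes within it is not given. Without the split, only 6% of all genes were positive on TPM in Myo10_m1J against Myo10_WT, so few positive members are no trait of these genes.

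The 9 genes varied together inside the groups. Pearson r between the deviations of a pair of members from their group means on log2(TPM + 1), over 17 embryos, ran from 0.547 (Alas2 with Tal1) to 0.969 (Gata1 with Klf1), with a median of 0.836 over the 36 pairs. The range was alike at both ages. Among the E8.5 embryos r ran from 0.535 (Alas2 with Tal1) to 0.9885 (Gata1 with Klf1), and among the 8 E9.5 embryos from 0.534 (Epor with Gfi1b) to 0.986. All points share their library, and so their composition, between the genes of a pair. Pairs with Tal1 had a median r of 0.757 over the 17 embryos. At E8.5 their median was 0.765, against 0.843 for all pairs, but at E9.5 it was 0.852, against 0.794 for all pairs. Outside the 9, and among 12009 genes, the deviations of Cited4 (r = 0.988), Blvrb (0.987), Trim10 (0.986), Ank1 (0.945), Hbb-bh1 (0.934), Lyl1 (0.924), Slc38a5 (0.919) and Ube2l6 (0.916) were among the 10 most like the mean deviation of the members. Blvrb is a biliverdin reductase abundant in red cells, Ank1 encodes the membrane skeleton protein ankyrin, and Hbb-bh1 is an embryonic beta-like globin. Within E9.5 alone the r of these 8 ranged from 0.729 (Lyl1) to 0.973 (Trim10), over 8 embryos.

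Between the wild types the erythroid genes differed widely, Disp1_WT at E9.5 being above Myo10_WT at E8.5 for every member. Age, cross and experiment cannot be told apart here. Slc4a1 averaged 101.9 ± 12.1 TPM in Disp1_WT and 1.25 ± 1.88 TPM in Myo10_WT (SD, n = 4 each), an 81.7-fold ratio of means. That Myo10_WT mean rests largely on replicate 1 (4.07 TPM), the other embryos lying between 0.200 and 0.454 TPM, so the ratio is only rough. Alas2 averaged 99.2 ± 14.1 TPM in Disp1_WT and 3.46 ± 2.70 TPM in Myo10_WT, and Hemgn 16.3 ± 2.99 TPM in Disp1_WT and 0.689 ± 0.745 TPM in Myo10_WT, ratios of 28.6 and 23.7. The ratio was 9.13 for Nfe2, 5.87 for Gfi1b, 5.48 for Gata1, 5.45 for Klf1 and 4.37 for Epor. Gata1 averaged 11.6 ± 1.33 TPM in Disp1_WT and 2.12 ± 1.33 TPM in Myo10_WT, and Klf1 23.5 ± 3.15 TPM in Disp1_WT and 4.31 ± 2.91 TPM in Myo10_WT. Tal1 differed least, at 14.9 ± 1.39 TPM in Disp1_WT and 11.0 ± 2.56 TPM in Myo10_WT, a ratio of 1.36.

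Limma called 9 of 9 genes higher in Disp1_WT, where 69.4% of 13397 genes were called higher, and 9 of 9 did not overlap between the groups, where 66.1% of all genes were higher without overlap, so the count by itself is little above the background. The size was larger: on the log2(TPM + 1) scale Slc4a1 differed by 5.81 (SE 0.383, adjusted p = 1.658e-07), Alas2 by 4.66 (SE 0.327, adjusted p = 2.509e-07), Hemgn by 3.43 (SE 0.247), Klf1 by 2.36 (SE 0.323), Nfe2 by 2.20 (SE 0.187), Gata1 by 2.13 (SE 0.287), Gfi1b by 2.00 (SE 0.251), Epor by 1.87 (SE 0.249) and Tal1 by 0.43 (SE 0.155, adjusted p = 0.0235), while the median over all genes was 0.62. Tal1 therefore lay below the median gene. Slc4a1, Hemgn, Nfe2, Gata1 and Gfi1b were below 1 TPM in some Myo10_WT embryos. These genes met the filter only with Disp1_WT embryos counted, which favours a higher level in Disp1_WT. After median-of-ratios scaling, which brought the median of all genes to 0.002, limma called 8 of 9 higher, where 36.2% of 13256 genes were called higher and 36.4% lower. The differences were then 5.31 for Slc4a1, 4.06 for Alas2, 2.97 for Hemgn, 1.77 for Klf1, 1.74 for Nfe2, 1.59 for Gata1, 1.52 for Gfi1b and 1.30 for Epor. Tal1 turned to -0.20 (SE 0.106, adjusted p = 0.112), and it was -0.08 (adjusted p = 0.623) when the structural, haemoglobin and mitochondrial genes were left out. The direction of Tal1 between the ages thus depended on the scaling, and that of the other 8 did not. The adjusted p of Tal1 in the unscaled fit was above 0.05 when Disp1_WT replicate 2 (0.0638), Myo10_WT replicate 3 (0.0549) or Myo10_WT replicate 4 (0.0579) was left out.

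**Figure D4:**
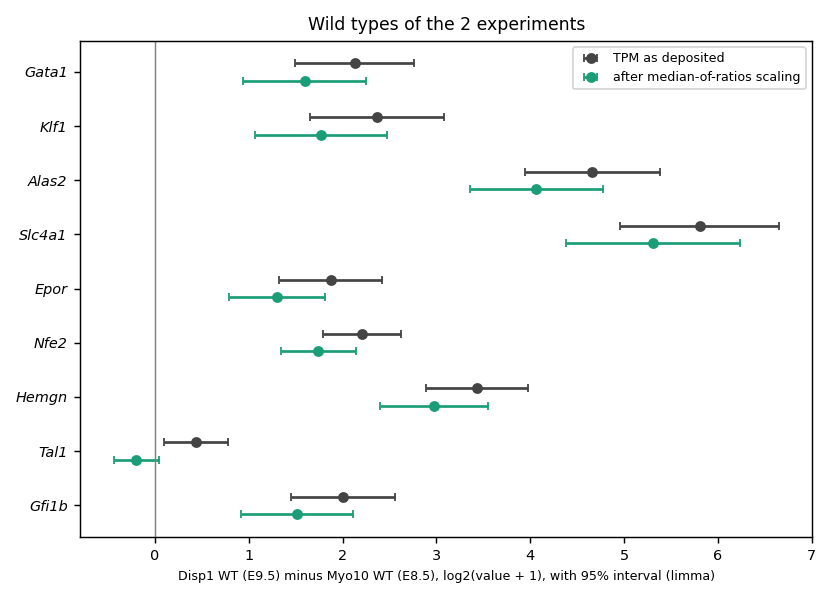
Difference between Disp1_WT (E9.5) and Myo10_WT (E8.5) for each gene on the log2(value + 1) scale with the 95% interval from limma, from TPM as deposited (black) and after median-of-ratios scaling (green). Slc4a1 and Alas2 lie farthest to the right under both scales, and Tal1 is the gene whose difference changes sign.

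The paralogues of Alas2 and Gata1 were read beside them. Alas1, the housekeeping form of the enzyme, averaged 15.4 ± 0.745 TPM in Disp1_WT and 9.26 ± 1.33 TPM in Myo10_WT, a difference of 0.68 on the log2(TPM + 1) scale that was 0.05 (limma adjusted p = 0.454) after median-of-ratios scaling. Alas2 transcript was 5.97 ± 2.01 times that of Alas1 in Disp1_CS_INDEL and 6.49 ± 1.11 times in Disp1_WT, but 0.682 ± 0.644 times in Myo10_m1J and 0.351 ± 0.228 times in Myo10_WT. These ratios within a library do not depend on the scaling. Gata2, the GATA factor of earlier blood precursors, averaged 5.05 ± 0.274 TPM in Disp1_WT and 3.04 ± 0.585 TPM in Myo10_WT, with a difference of 0.05 after scaling (adjusted p = 0.754). Gata1 over Gata2 was 2.38 ± 0.741 in Disp1_CS_INDEL and 2.31 ± 0.266 in Disp1_WT, against 0.843 ± 0.868 in Myo10_m1J and 0.716 ± 0.529 in Myo10_WT. The order of the GATA factors was thus reversed on average between the ages, although Myo10_m1J replicates 2 and 4 (1.70 and 1.87) and Myo10_WT replicate 1 (1.43) already had more Gata1 than Gata2. Klf1 over Gata1, by contrast, was 2.28 ± 0.613 in Disp1_CS_INDEL, 2.01 ± 0.0769 in Disp1_WT, 2.18 ± 0.257 in Myo10_m1J and 2.16 ± 0.556 in Myo10_WT, with overlapping values in all 4 groups.

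Set against the embryonic globins the members fell into different patterns. The embryonic globins (Hbb-bh1, Hbb-y and Hba-x together) took 3.49% ± 0.989 of all TPM in Disp1_CS_INDEL and 3.55% ± 0.454 in Disp1_WT, but 0.165% ± 0.205 in Myo10_m1J and 0.0650% ± 0.0642 in Myo10_WT. Per 1000 TPM of these globins, Gata1 was 0.342 ± 0.0497 TPM in Disp1_CS_INDEL and 0.329 ± 0.0224 TPM in Disp1_WT, against 2.72 ± 2.28 TPM in Myo10_m1J and 4.06 ± 2.38 TPM in Myo10_WT, with no overlap between the ages. Tal1 was 0.438 ± 0.0536 TPM per 1000 in Disp1_CS_INDEL and 0.424 ± 0.0527 in Disp1_WT, against 46.5 ± 56.1 in Myo10_m1J and 25.4 ± 11.7 in Myo10_WT. Slc4a1 kept nearly the same proportion, at 2.96 ± 0.464 TPM per 1000 in Disp1_CS_INDEL, 2.89 ± 0.304 in Disp1_WT and 2.81 ± 0.537 in Myo10_m1J, and was lower in Myo10_WT at 1.38 ± 0.907, where replicates 2 and 3 had 0.618 and 0.688. Alas2 was 2.69 ± 0.190 TPM per 1000 in Disp1_CS_INDEL and 2.80 ± 0.240 in Disp1_WT, against 12.3 ± 19.5 in Myo10_m1J and 5.91 ± 1.69 in Myo10_WT. The mean of Myo10_m1J rests on replicate 1, at 47.1 TPM per 1000, and the other 4 mutants lay between 2.35 and 5.60. The ratio of a gene to globin contains the globin level on both axes of such a plot, so its slope is not a relation of its own.

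**Figure D5:**
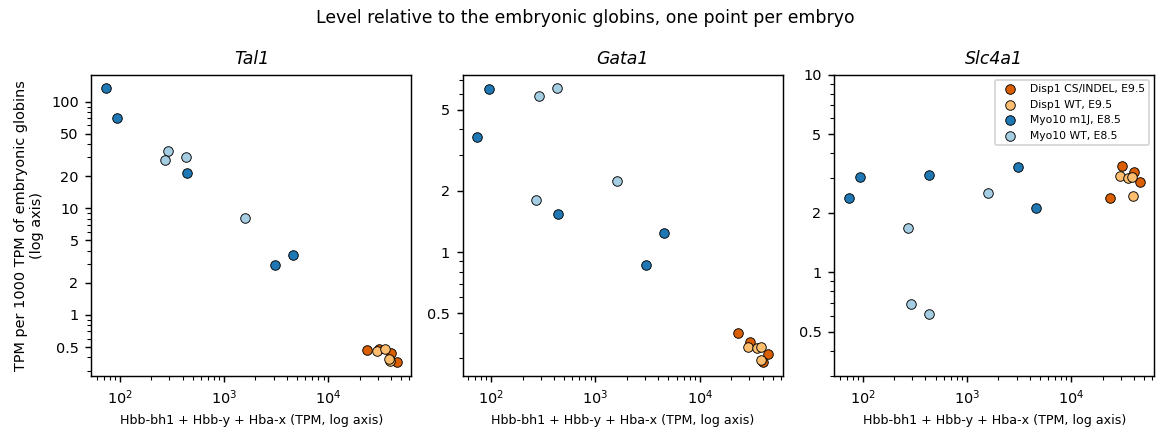
TPM of Tal1, Gata1 and Slc4a1 per 1000 TPM of embryonic globins (log axis, vertical) against the summed embryonic globins (Hbb-bh1, Hbb-y and Hba-x, log axis, horizontal) in the 17 embryos, coloured by group. Tal1 and Gata1 per globin are lower in every E9.5 embryo than in any E8.5 embryo, and Slc4a1 per globin spans 0.618 to 3.43 with the ages overlapping.

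The rest of the red cell program was read in the same comparison of Disp1_WT with Myo10_WT, each list with its count on TPM and after median-of-ratios scaling. These counts stand against a background of 69.4% of all genes called higher and 10.2% lower on TPM, and of 36.2% higher and 36.4% lower after scaling. Genes below 1 TPM in every Myo10_WT embryo passed the filter through Disp1_WT alone, which fixes their direction. Genes that reached 1 TPM in only some Myo10_WT embryos also needed Disp1_WT embryos to pass, and they are not counted among these. Of the haem synthesis enzymes beyond Alas2, 7 of 7 were called higher in Disp1_WT on both scales, with Alad, the enzyme after Alas2 in the pathway, at 1.90 (1.22 after scaling). Of the red cell membrane genes, 17 of 17 were called higher, and 16 of 17 after scaling, though 6 of the 17, Rhag and Rhd included, passed the filter through Disp1_WT alone. Among them were Rhag (3.13, and 2.74 after scaling) and Rhd (2.88, and 2.45 after scaling), which encode Rh proteins, and Gypc (2.92, and 2.29 after scaling), glycophorin C. Of 12 other red cell genes 12 were called higher on both scales, though 1 of the 12, Cldn13, passed the filter through Disp1_WT alone. The iron and haem handling genes were mixed: 10 of 13 were called higher and 1 lower on TPM, but 5 higher and 4 lower after scaling, shares near those of all genes. Steap3, a ferric reductase of endosomes and the 1 gene of this list that passed through Disp1_WT alone, was higher by 1.92 (1.48 after scaling). Flvcr1, a haem exporter, was called lower after scaling (-0.71). Tfrc, the transferrin receptor, averaged 88.7 ± 9.82 TPM in Disp1_WT and 86.1 ± 17.3 TPM in Myo10_WT, a difference of 0.06 that was -0.62 after scaling (adjusted p = 0.00862).

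The blood factors outside the 9, transcription factors and the receptor Kit, were mixed as well. On TPM 14 of 17 were called higher and 1 lower, and after scaling 8 of 16 were called higher and 4 lower. Of the 17, 2 passed the filter on TPM through Disp1_WT alone, which fixes their direction. E2f2, which acts in the cell cycle of red cell precursors, was higher by 2.04 (1.46 after scaling), and Lyl1, the relative of Tal1, by 1.92 (1.35 after scaling). Etv2, a factor of the common precursor of blood and endothelium, was lower in Disp1_WT, at 5.70 ± 0.846 TPM against 21.7 ± 8.91 TPM in Myo10_WT, a difference of -2.28 after scaling (adjusted p = 7.586e-05). Kit, the receptor of early precursors, averaged 10.3 ± 1.26 TPM in Disp1_WT and 10.8 ± 1.26 TPM in Myo10_WT and was called lower after scaling (-0.69). Of the erythropoietin pathway genes 9 of 13 were called higher and 1 lower on TPM, and 6 higher and 3 lower after scaling, again near the shares of all genes. Epo itself averaged 5.74 ± 0.405 TPM in Disp1_WT and 1.31 ± 0.270 TPM in Myo10_WT, higher by 1.55 (1.05 after scaling), and Socs3, a feedback inhibitor of cytokine receptors, was higher by 1.37 (0.76 after scaling). Markers of other blood cells differed in level. The 11 megakaryocyte genes summed to between 34.1 and 37.9 TPM in Disp1_WT and between 2.93 and 7.81 TPM in Myo10_WT, with Pf4 at 16.97 ± 0.861 TPM in Disp1_WT and 0.0796 ± 0.0620 TPM in Myo10_WT. The 11 macrophage genes summed to between 10.2 and 16.3 TPM in Disp1_WT and between 2.599 and 5.40 TPM in Myo10_WT. No count of calls is read from these lists, since 4 of 6 megakaryocyte and 3 of 4 macrophage genes tested passed the filter through Disp1_WT alone. The fourth macrophage gene, Mrc1, was lower in Disp1_WT, at 0.731 ± 0.301 TPM against 2.72 ± 1.41 TPM in Myo10_WT (limma adjusted p = 0.00099, and 0.000157 after scaling). Of the yolk sac endoderm genes 11 of 11 were called lower on both scales. Their part in the differences of the 9 erythroid genes was not tested.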

How the data were processed

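RNA of 17 single whole embryos had been sequenced. Per the labels' protocols, each embryo was frozen on its own until its genotype was known, RNA was purified from all at the same time on micro columns, and TruSeq libraries were run on a NovaSeq instrument. The deposited values are TPM, made by the authors against build GRCm39 (mm39), per the submitters' processing notes. Which aligner, quantifier and annotation they used is not given in the sources used here. Since depth cannot be read from such values, no counting interval or detection floor is given.

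Groups came from the sample titles. The scale was log2(TPM + 1), on which folds of low genes come out too small. The filter kept genes with at least 1 TPM in 4 or more libraries of the fit. Limma 3.58.1 in R 4.3.3 was run with a mean-variance trend, and p-values were adjusted by Benjamini and Hochberg's method over every gene kept, with a threshold of 0.05. Each experiment was fitted alone, the wild types of both in 1 fit of 8 libraries, and the difference of the mutant effects in 1 fit of 17. Myo10 and Disp1 levels in the mutants were set against those of their own wild types by exact permutation of the embryos, two-sided by doubling the smaller one-sided p. Median-of-ratios factors were taken over genes above 0 in every library. The fitting code was tested on simulated data. The 9 genes and the other lists were chosen with earlier results of these data known. The naming rule allowed the members, up to 4 genes of each list with the smallest p, the 10 genes most like the members, the paralogues Alas1, Gata2 and Gfi1, and the targeted genes. Genes named beyond it (Alad, Tfrc, Epo and Pf4, in comparisons where they were not among the leading 4) were named after their values were seen. Hbb-bh0 was not found in the table. Promoters came from a RefSeq table of GRCm38.p6, another build than the authors', and no other coordinates are printed. Some genes that the rule named are not reported here. No library was left out of the main results.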

Additional observations from a re-analysis of the deposited data

Results flagged for a closer look

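Of 72 groups of 4 or 5 embryos read (the 9 genes and 9 summed lists in 4 groups), 11 held an embryo whose gap to its nearest neighbour was large against the whole range of its group. For independent, normally distributed values such a rule flags about 1 in 20 groups. These groups share embryos and their TPM are often skewed, so that rate need not hold here. Slc4a1 was 4.07 TPM in Myo10_WT replicate 1, and the next wild-type embryo had 0.454 TPM. The globin sum of the same embryo was 2043 TPM, and the next had 579 TPM. Epor was 5.64 TPM in Myo10_m1J replicate 2, and the next mutant had 2.38 TPM. That embryo also stood alone for the haem synthesis enzymes (189 TPM, next 138.9), the endothelial genes (226.5 TPM, next 137.1), the megakaryocyte genes (11.7 TPM, next 4.40) and the decidual genes (176 TPM, next 31.4). The megakaryocyte sum was 147.0 TPM in Disp1_CS_INDEL replicate 2, next 29.2 TPM. Disp1_WT replicate 3 held 1048 TPM of yolk sac endoderm genes (next 96.3) and 609 TPM of decidual genes (next 79.2), while its erythroid genes lay among those of the other wild types. The decidual sum of Disp1_CS_INDEL replicate 1 was 59.2 TPM, next 50.01 TPM.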

How the results depend on the processing

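The 9 genes gave 0 calls in the comparisons of Disp1_CS_INDEL with Disp1_WT, of Myo10_m1J with Myo10_WT and of these mutant effects with each other, under every alternative tried. The filter on a mean TPM of at least 5 left 2 of the genes in the Myo10 comparison and 7 in the age comparison. In wild types of E9.5 against E8.5, 8 or 9 of the genes were called without any 1 replicate and 0 of 9 with the globin sum as a covariate, which itself separates the ages. With that covariate, log2 differences turned to -0.82 for Gata1, -1.47 for Klf1, -0.35 for Epor and -0.82 for Tal1. The age difference of Tal1 turned to -0.20 after median-of-ratios scaling and to -0.080 with structural, haemoglobin and mitochondrial genes left out. In limma its adjusted p was 0.0708 with the Y-linked mean as a covariate, 0.0642 in 1 fit of all libraries, 0.0638 without Disp1_WT replicate 2, 0.0549 without Myo10_WT replicate 3 and 0.0579 without Myo10_WT replicate 4.

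All other reversals were of differences that no test called. For the Disp1 mutants they came with the globin covariate (0.020 for Gata1, 0.039 for Slc4a1, 0.047 for Hemgn and 0.024 for Tal1). For the Myo10 mutants they came with scaling (0.062 for Tal1), the Y-linked covariate (-0.15 for Alas2 and -0.080 for Nfe2), the globin covariate (-0.10 for Alas2 and -0.0071 for Nfe2) and the replicate block (0.021 for Klf1 and 0.0086 for Gfi1b). For the difference of the mutant effects they came with a pseudocount of 0.1 (0.0086 for Hemgn), scaling (-0.054 for Epor and -0.075 for Tal1) and the globin covariate (0.021 for Alas2, 0.035 for Nfe2 and 0.076 for Hemgn). The log2 difference of Disp1 itself was -0.30 after scaling, with an exact permutation p of 0.0286. The cause was not tested for any of these.

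Leaving out 1 embryo at a time, log2 differences in the Disp1 mutants ran from -0.11 to 0.076 for Gata1, -0.022 to 0.39 for Klf1, -0.23 to 0.029 for Alas2, -0.16 to 0.25 for Slc4a1, -0.18 to 0.050 for Epor, -0.13 to 0.078 for Nfe2, -0.19 to 0.22 for Hemgn, -0.092 to 0.12 for Tal1 and -0.033 to 0.10 for Gfi1b. In the Myo10 mutants they ran from -0.62 to -0.022 for Gata1, -0.76 to 0.025 for Klf1, -0.15 to 0.75 for Alas2, 0.68 to 1.26 for Slc4a1, -0.39 to 0.023 for Epor, 0.034 to 0.33 for Nfe2, -0.29 to 0.012 for Tal1 and -0.46 to 0.023 for Gfi1b. The difference of the effects ran from 0.0096 to 0.61 for Gata1, 0.10 to 0.88 for Klf1, -0.87 to 0.030 for Alas2, -1.40 to -0.47 for Slc4a1, -0.084 to 0.33 for Epor, -0.32 to 0.12 for Nfe2, -0.46 to 0.10 for Hemgn, -0.021 to 0.28 for Tal1 and 0.0097 to 0.50 for Gfi1b.

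Same-numbered embryos did not deviate together throughout (r from -0.287 to 0.463 across genes, own number best only for replicate 4), so the numbers were not taken to pair them. With the replicate block, 1 gene was called higher and 45 lower in the Myo10 mutants, against 0 and 1 without the block. The Disp1 mutants then had 1 and 1, against 1 and 3, and the difference of the effects 12 and 1, against 2 and 1. Over all genes at E9.5 against E8.5, 9304 were called higher and 1364 lower, against 4794 and 4830 after scaling, 5855 and 3826 with the abundant classes left out, and 751 and 533 with the globin covariate. After scaling, the Disp1 mutants had 2 higher and 5 lower. The deposited TPM do not give depth, so what it limits is unknown.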

Other observations

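Myo10_m1J replicate 1 combined a high level of adult-type globins with low erythroid regulators. Its summed Hbb-bs and Hbb-bt level was 361 TPM, against 6.06 to 150.5 TPM in the other 4 mutants and 7.08 to 107.9 TPM in Myo10_WT, while its embryonic globins summed to 94.5 TPM, the second lowest of the 9 embryos after the 73.6 TPM of Myo10_m1J replicate 5. Alas2 over Gata1 was 7.48 in it, against 1.52 to 3.48 in the other mutants and 1.00 to 2.77 in Myo10_WT. Its Hemgn was 0.0642 TPM and its Slc4a1 0.286 TPM. These values were noticed after the data were seen.

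Alad, the enzyme after Alas2 in haem synthesis, varied among the E9.5 wild types in another order than Alas2. It was 261, 112.5, 196.7 and 249 TPM in Disp1_CS_INDEL replicates 1 to 4, against 247.8, 119.2, 122.2 and 255.1 TPM in Disp1_WT replicates 1 to 4. Alas2 in the wild types was 79.1, 110.6, 106.8 and 100.3 TPM in the same replicates, so the wild types with less Alad did not have less Alas2. In the mutants, replicate 2 was the lowest for both, with 66.9 TPM of Alas2.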
